A study of Mus musculus with 13 samples.

Results

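Cytosolic ribosomal protein genes encode the proteins that, with ribosomal RNA, build the large and the small subunit of the ribosome that translates nuclear messages. They were chosen by symbol alone: Rpl or Rps, digits and an optional a, x, l or p ending, plus Rplp0, Rplp1, Rplp2 and Rpsa, without pseudogene symbols and without the Rps6k kinases. The rule found 85 genes, namely 43 of the large subunit, 31 of the small subunit, 3 of the P stalk and 8 paralogs. Of these, 84 were among the 23337 genes listed for the EKLF+/+ and EKLF-/- libraries, 85 among 35498 genes for the EKLF/GFP libraries and 85 among 54227 genes in the single-cell table.

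Livers of E13.5 mouse embryos were the source of the F4/80+ cells studied. The labels give C57BL/6 for all groups, whereas the study's methods list the EKLF-null line on a 129S4/SvJae background, and the strain of the EKLF+/+ embryos beside them is given by the labels only. F4/80, encoded by Adgre1, is a surface protein of macrophages. EKLF (KLF1) is a zinc finger activator best known from red cell precursors. The sorted groups, each of 3 bulk libraries, were EKLF+/+ embryos, EKLF-/- embryos, and the GFP+ and GFP- fractions of embryos that are wild type for EKLF and carry pEKLF-GFP, where the EKLF promoter drives the green fluorescent protein. A single-cell library came from wild-type littermates whose cells were pooled, with F4/80+ cells taken on magnetic beads. All EKLF/GFP+ RNA, and no other bulk RNA, was extracted with a Nanoprep kit, so for the GFP fractions kit and group cannot be told apart. The study's methods give a lower RNA integrity for EKLF/GFP+ than for EKLF+/+ and EKLF-/- RNA, and none for EKLF/GFP- RNA. No label says that embryos were shared or separate within a group, so p-values measure the spread between these libraries.

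The depth, as total counts on genes, was 10695514 to 15362161 for EKLF+/+ and EKLF-/- samples and 22723279 to 28736396 (estimated) in the EKLF/GFP libraries. Levels are given in CPM, the counts on a gene relative to all counts on genes of its library after TMM normalization, which scales libraries on the bulk of their genes. Klf1 was at 305 to 376 CPM in EKLF+/+ and at 57.1 to 64.2 CPM in EKLF-/- libraries, and at 28.6 to 45.7 CPM in EKLF/GFP- and 87.3 to 101 CPM in EKLF/GFP+ libraries, in the direction of every label. Adgre1 was detected in all 12 bulk libraries and did not pass the test in either comparison (adjusted p = 0.604 and 0.68, edgeR). The sorted cells also carried erythroid, neutrophil and monocyte RNA, which moved with the groups.

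Ribosomal proteins are made in amounts that match each other, and cells in rapid growth, among them early red cell precursors, spend a large share of their messages on them. Many of these messages start with a C followed by a run of C and T, the terminal oligopyrimidine (TOP) motif, through which growth signals set their translation. Inherited loss of 1 copy of single members causes Diamond-Blackfan anaemia, in which red cell precursors fail, and unassembled Rpl5 and Rpl11 bind Mdm2 and so stabilise p53.

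The start sites were searched for the TOP motif. RefSeq promoters on GRCm38.p6 were matched for 63 of the 85 members and 27025 genes in all. A pyrimidine tract was taken as C and at least 4 more C or T, beginning within 3 bases of the annotated start. It was found for 39.7% of these members and for 13.51% of all genes. Starts further away were not searched, so a member without a tract here is not shown to lack the motif. The windows below, 30 bases with 15 on either side of the start, are a selection, and capitals mark the tract. They show Rps18, Rpl12, Rps12 and Rpl27, called in a bulk comparison by edgeR, and Rpl14 and Rpl28, called by DESeq2 only. Of the other members called by edgeR, Rpl3 has no entry in the table and Rps14 is not shown. Other members called by DESeq2 only are not shown either, so the windows do not tell how common the tract is.
Rps18 (small subunit, chr17:33955651-33955680, minus strand): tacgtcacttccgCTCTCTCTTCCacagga
Rpl14 (large subunit, chr9:120571502-120571531, plus strand): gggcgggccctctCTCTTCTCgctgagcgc
Rpl28 (large subunit, chr7:4792950-4792979, plus strand): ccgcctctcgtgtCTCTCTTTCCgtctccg
Rpl12 (large subunit, chr2:32961697-32961726, plus strand): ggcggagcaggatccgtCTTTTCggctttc
Rps12 (small subunit, chr10:23787195-23787224, minus strand): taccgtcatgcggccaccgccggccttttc
Rpl27 (large subunit, chr11:101442230-101442259, plus strand): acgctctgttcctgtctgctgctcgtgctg
The letters of Rps12 and Rpl27 hold no such tract within 3 bases of the start that the table gives.

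EKLF binds CACCC boxes, written CCNCNCCC in their extended form. On either strand of the 250 bases upstream of the start, CCNCNCCC was present for 55.6% of members and 48.5% of all genes, and its strict form CCACACCC, which CCNCNCCC includes, for 4.76% and 3.68%. The ETS letters CCGGAAGT were found for 12.7% of members and 3.23% of all genes, and TATAAA for 6.35% and 14.3%. A match of letters is not a binding site. The upstream stretch of Rps18, which rose in EKLF-/- cells, is shown because it holds 1 CCNCNCCC match, in capitals (chr17:33955666-33955915, minus strand).
Rps18 upstream: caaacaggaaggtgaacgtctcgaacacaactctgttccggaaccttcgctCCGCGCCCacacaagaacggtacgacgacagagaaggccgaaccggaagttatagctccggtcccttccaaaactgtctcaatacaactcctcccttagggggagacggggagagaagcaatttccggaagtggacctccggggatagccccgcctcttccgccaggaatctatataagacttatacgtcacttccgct

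The first comparison asks whether members depend on EKLF. In EKLF-/- cells, Rpl3 and Rps18 rose, no member was called lower, and Rpl29 was lower in every EKLF-/- library without passing the test. Of 81 members tested, 79 had a positive log2 fold change, with a median of 0.35 where that of all 12753 genes was 0.016. The shift was smaller without EKLF-/- 2 (median 0.11) and with an offset for gene length (0.030, 48 of 81 positive). Calls are adjusted p under 0.05 in edgeR's quasi-likelihood test over all genes, and 9.72% of all genes were called higher and 10.6% lower. The other 79 members did not pass.

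Rpl3, a large subunit protein that reaches the peptidyl transferase centre, was at 1009, 1357 and 1166 CPM in EKLF+/+ and at 1741, 2414 and 1913 CPM in EKLF-/- libraries. Every EKLF-/- library was above every EKLF+/+ library. The log2 fold change was 0.78 ± 0.17 (SE, n = 3 and 3, adjusted p = 0.0157, edgeR). Rps18, of the head of the small subunit, was at 425, 458 and 558 CPM against 787, 738 and 745 CPM. The groups did not overlap, the EKLF-/- values lay close together, and Rps18 rose by 0.65 ± 0.13 on the log2 scale (adjusted p = 0.0118, edgeR). Each was called in 4 of 6 fits that left out 1 library. Rpl3 was not called without EKLF+/+ 1 or EKLF+/+ 3, and Rps18 not without EKLF+/+ 1 or EKLF+/+ 2 (highest adjusted p = 0.0755 and 0.0679, edgeR).

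Rps2, a small subunit protein near the messenger entry, was at 1440, 1383 and 1564 CPM in EKLF+/+ and at 2139, 3199 and 1555 CPM in EKLF-/- libraries. The groups overlapped, and the log2 fold change of 0.65 ± 0.23 did not pass (adjusted p = 0.0791, edgeR). Rpl28, of the large subunit, had values of 939, 998 and 985 CPM against 1136, 1899 and 1335 CPM, without overlap, and a log2 fold change of 0.58 ± 0.18 (adjusted p = 0.0563, edgeR). Rpl35a, a Diamond-Blackfan gene, was at 693, 403 and 652 CPM against 505, 1471 and 601 CPM. The paralogs Rps4l and Rpl39l had 0.57 ± 0.21 and 0.57 ± 0.48, the latter at 0.6 to 2.99 CPM, and did not pass. The positive log2 fold change of Rpl35a, 0.56 ± 0.39, rested on EKLF-/- 2 and was -0.091 without that library.

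The largest change in size was that of Rpl29, a large subunit protein that is dispensable in mice. It was at 416, 391 and 469 CPM in EKLF+/+ and at 242, 82.6 and 279 CPM in EKLF-/- libraries, without overlap. EKLF-/- 2 was at 0.212 times the median of the other 5 libraries. The log2 fold change of -1.08 ± 0.37 did not pass (adjusted p = 0.0687, edgeR). Without EKLF-/- 2 it was -0.72 and passed (adjusted p = 0.0016, edgeR). Rpl29 has 27 near-identical copies, and reads without a unique position were left out of these counts. It was at 1254 to 1615 CPM in the EKLF/GFP libraries. The share of such reads was highest in EKLF-/- 2 (29.8%) and next in EKLF+/+ 3 (29.2%), where Rpl29 was at 469 CPM. The part of read assignment was not tested. Rpl34 was the other member with a negative value, at 13.9, 13.3 and 11.7 CPM against 10.8, 11.5 and 8.94 CPM (log2 fold change -0.32 ± 0.16, adjusted p = 0.174, edgeR). Rpl34 was at 870 to 1063 CPM in the EKLF/GFP libraries, so its value here rests on few counts, 912 over the 6 libraries. The smallest positive values were those of Rpl7 (0.12), Rps27l (0.14), Rpl35 (0.15) and Rplp0 (0.16).

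**Figure D1:**
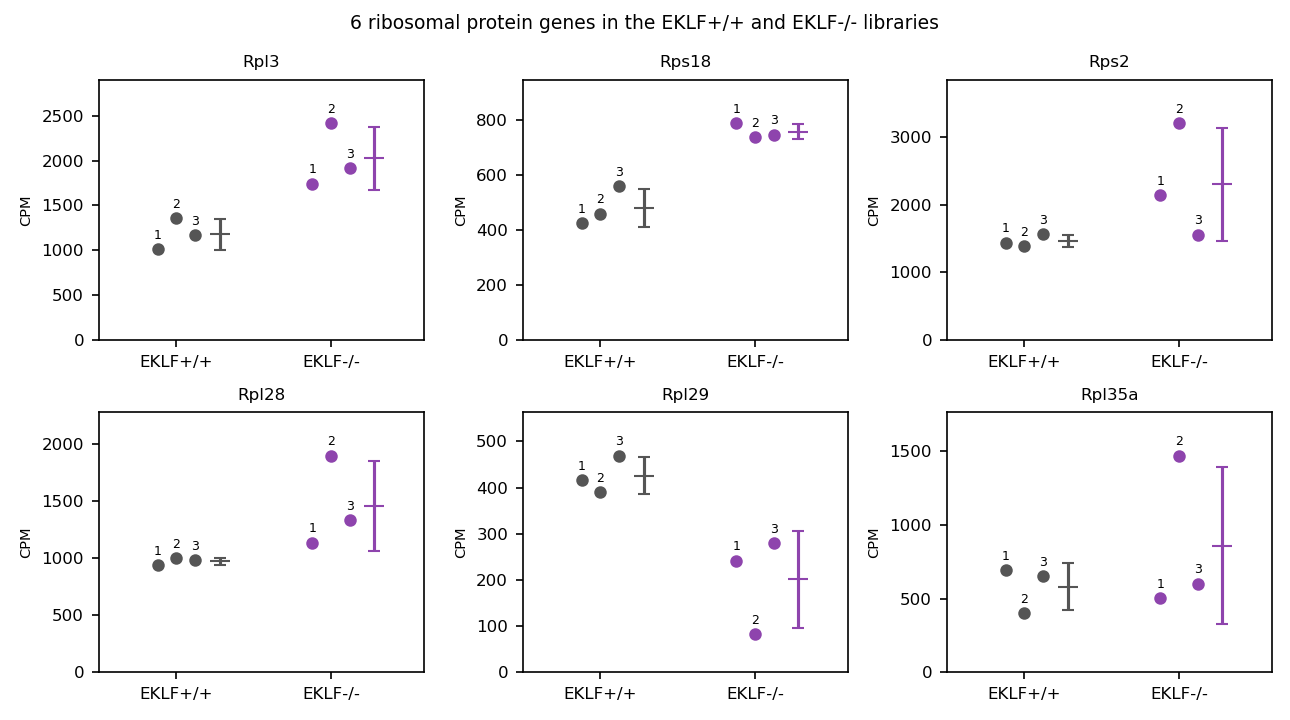
CPM of 6 ribosomal protein genes in the 3 EKLF+/+ (grey) and 3 EKLF-/- (purple) libraries, with replicate numbers over the points and mean ± SD (n = 3) at their right. The EKLF-/- libraries of Rpl3 and Rps18 all lie above the EKLF+/+ libraries, those of Rpl29 all lie below, and EKLF-/- 2 stands apart for Rps2, Rpl28, Rpl29 and Rpl35a.

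EKLF-/- 2 gave most of the upward shift. It held the highest value of 74 of 81 members, and the median member was at 1.66 times the median of the other 5 libraries, where the median over all genes tested was 1.01. Relative to the EKLF+/+ mean, the median log2 ratio of members was -0.076, -0.14 and 0.20 in the EKLF+/+ libraries and 0.0043, 0.71 and 0.22 in the EKLF-/- libraries. EKLF-/- 1 and EKLF-/- 3 therefore lay within or just above the EKLF+/+ range. Without EKLF-/- 2 the median log2 fold change was 0.11, with 3 members called higher and 1 lower (10.2% and 13.7% of all genes in that fit), and without EKLF-/- 1 it was 0.49, with 19 higher (13.7% of all genes). Leaving out EKLF+/+ 1 gave 0 calls, EKLF+/+ 2 gave 1 higher and EKLF+/+ 3 gave 1 higher. Calls over all genes fell too, to 2.75%, 3.33% and 2.94% higher and 4.57%, 4.86% and 5.02% lower in these fits.

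Other features of the library moved with it. EKLF-/- 2 had the highest summed level of the 10 neutrophil markers (15257 CPM, against 8222 and 9958 CPM in the other EKLF-/- libraries and 5540 to 7229 CPM in EKLF+/+) and of the 8 monocyte markers (1033 CPM, against 481 to 700 CPM in the others). The erythroid markers summed to 10183 to 12119 CPM in EKLF+/+ and 6279 to 8305 CPM in EKLF-/- libraries, lowest in EKLF-/- 2, with 7 of 10 tested lower and 1 higher, while 7 of 10 neutrophil and 1 of 8 monocyte markers were higher and none lower. EKLF-/- 2 had the lowest share of reads on no gene (38.7%, against 41.9 to 44.2%). Their part in the result was not tested. In bulk cells, fewer cells of a type and less RNA per cell cannot be told apart.

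**Figure D2:**
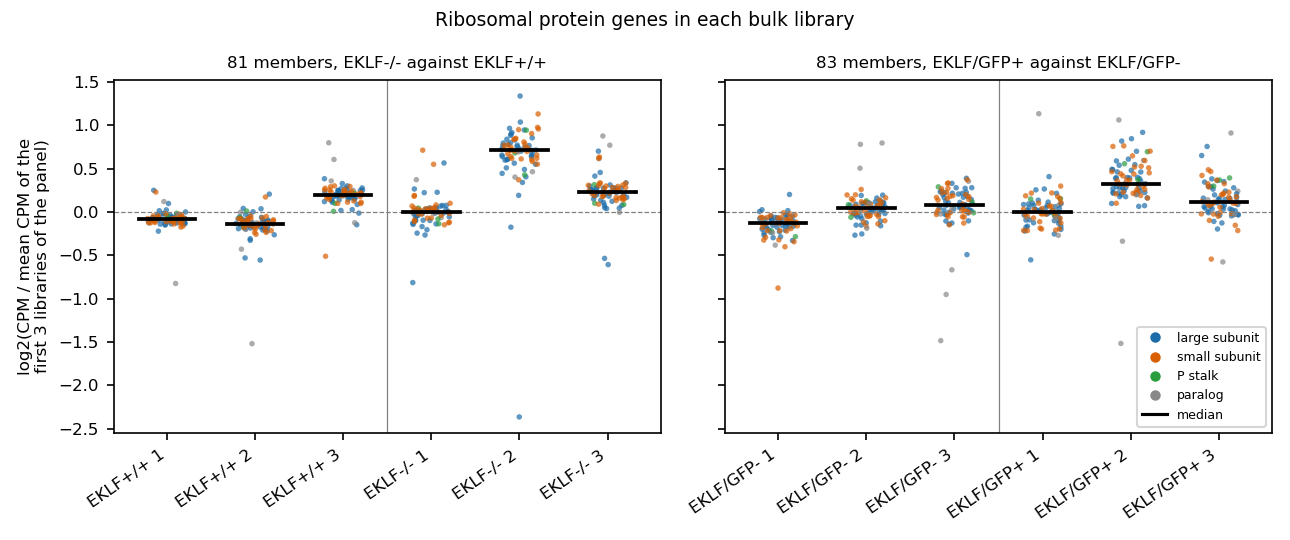
Each point is a ribosomal protein gene in a bulk library, on the y axis as log2 of its CPM over its mean CPM in the 3 libraries at the left of the panel (EKLF+/+ or EKLF/GFP-), coloured by role, with the median as a bar. The medians of EKLF-/- 2 (0.71) and EKLF/GFP+ 2 (0.32) are the highest of their panels.

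By role, the median log2 fold change was 0.33 over 42 large subunit members tested (1 higher), 0.37 over 31 small subunit members (1 higher, all 31 positive), 0.25 over the 3 P stalk members (none called) and 0.43 over 5 paralogs (none called). In the stalk, which recruits elongation factors, Rplp2 did not overlap (839, 854 and 852 CPM against 874, 1630 and 1055 CPM), while Rplp0 had a log2 fold change of 0.16 ± 0.15 and Rplp1 of 0.25 ± 0.21. Rpsa, the laminin receptor protein of the small subunit, had 0.39 ± 0.19 (adjusted p = 0.162, edgeR). Values that did not overlap between groups were found for 8 members upward (among them Rpl3, Rpl8, Rpl14, Rpl28, Rplp2, Rps9 and Rps18) and 2 downward (Rpl29, Rpl34), against 22.9% of all genes upward and 23.4% downward. Some of these were named after their values were seen.

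Of the 19 Diamond-Blackfan anaemia genes, 18 were tested, none passed in either direction, and their median log2 fold change was 0.34. Rps19, the gene most often mutated in that disease, was at 778, 706 and 907 CPM against 822, 1491 and 1002 CPM, with overlap (log2 fold change 0.47 ± 0.21, adjusted p = 0.141, edgeR). Rpl5 had a log2 fold change of 0.34 ± 0.17 and Rpl11 of 0.35 ± 0.20. No p53 target was higher and 2 of 16 tested were lower, near the 10.6% of all genes, Plk2 (log2 fold change -1.03 ± 0.30, adjusted p = 0.044) and Sesn2 (-0.87 ± 0.15, adjusted p = 0.008, edgeR).

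Members are short genes, with a median exonic length of 1739 bases against 4418.5 bases over all genes tested. With an offset for gene length in each library, the median log2 fold change of members was 0.030, 48 of 81 were positive, and 2 were called higher and 2 lower (Rpl29, Rpl34). Of all genes, 942 were then higher and 1851 lower, in place of 1239 and 1356. Scaling by total counts gave 5 members higher and a split of all genes of 1655 higher and 1098 lower. DESeq2 called 6 members higher (among them Rpl3, Rpl14, Rpl28, Rps2 and Rps18) and none lower, beside 11.7% and 13.6% of all genes.

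**Figure D3:**
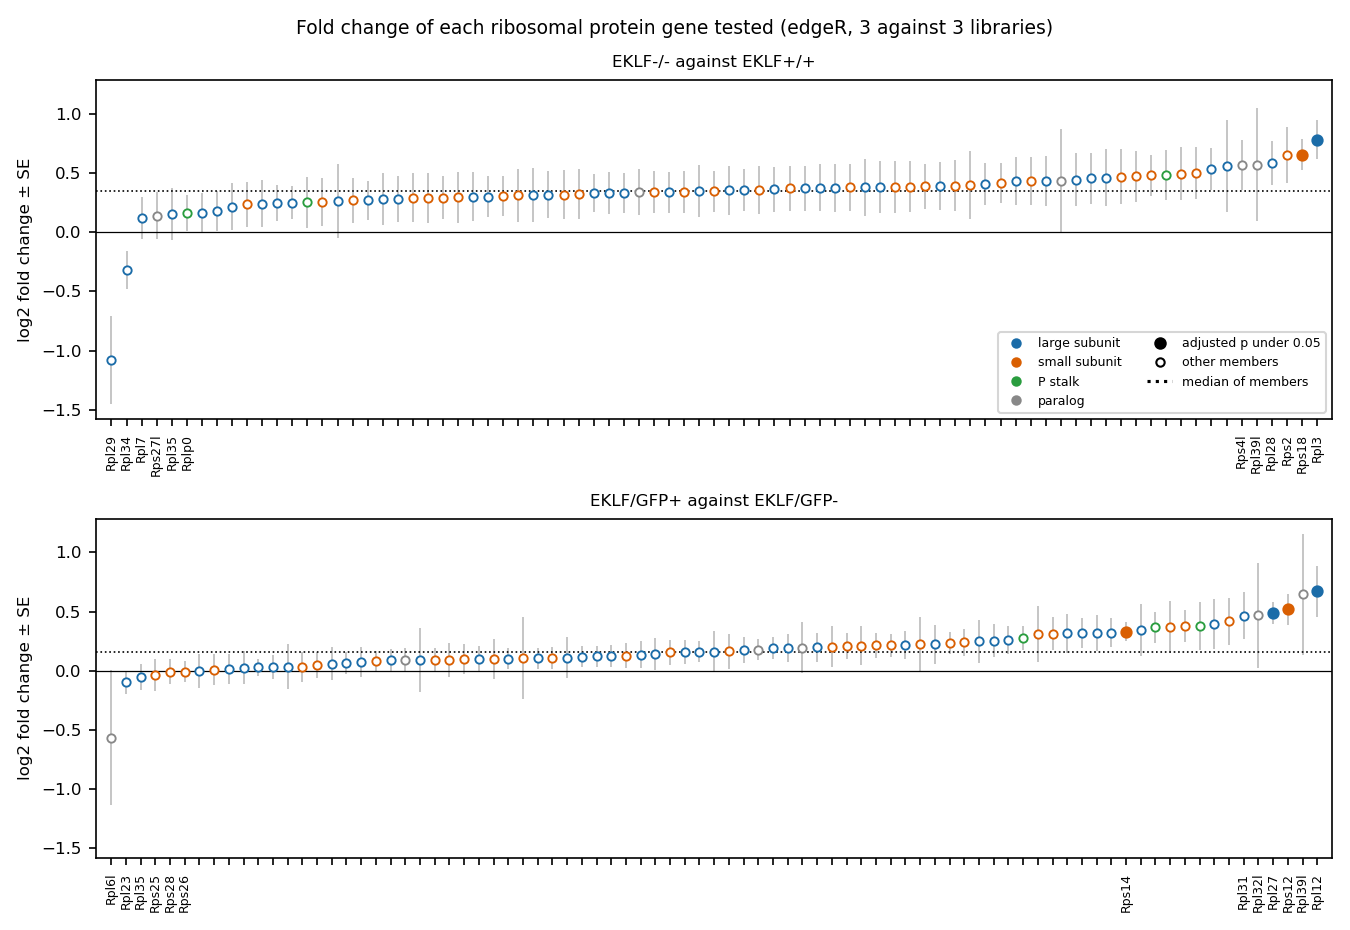
log2 fold change ± SE of each ribosomal protein gene tested, sorted, for EKLF-/- against EKLF+/+ (top, 81 genes) and EKLF/GFP+ against EKLF/GFP- (bottom, 83 genes), with filled points for adjusted p under 0.05 and symbols for the 6 lowest, the 6 highest and the filled genes. Values lie mostly between 0 and 0.5, Rpl29 and Rpl34 are the negative ones at the top, and 2 and 4 points are filled.

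The second comparison sets F4/80+ cells with an active EKLF promoter against those without. In EKLF/GFP+ cells, Rpl12, Rpl27, Rps12 and Rps14 were called higher and no member lower. Of 83 members tested, 76 were positive, and their median log2 fold change was 0.16 where that of all 14259 genes was -0.013. Here 18.9% of all genes were called higher and 25.8% lower, beside 4 of 83 and none of the members. The members' count depended on the method. DESeq2 called 17 higher (21.4% of all genes), its size factors in edgeR 9 (21.1%) and the length offset 8 (25.1%). A fit without the filter on low counts called 7 (12.2%). A replicate block called 12 (16.6%), and the block with the length offset 32 (23.9%), although replicate numbers did not pair the libraries. No member was lower in any of these.

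Rps12, of the small subunit beak, was at 172, 166 and 202 CPM in EKLF/GFP- and at 221, 304 and 249 CPM in EKLF/GFP+ libraries, without overlap (log2 fold change 0.52 ± 0.13, adjusted p = 0.0124, edgeR). In the authors' normalized counts its direction was the opposite, at 1711, 638 and 1437 against 1042, 715 and 1083, with a log2 fold change of -0.32. Its direction is therefore not settled by these files. Rps14, whose loss contributes to the anaemia of the 5q- syndrome, was at 327, 344 and 333 CPM against 389, 454 and 420 CPM (log2 fold change 0.33 ± 0.081, adjusted p = 0.0115, edgeR). All 3 EKLF/GFP+ libraries lay above all EKLF/GFP- libraries.

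Rpl27, of the large subunit and a Diamond-Blackfan gene, was at 27.7, 27.5 and 26.6 CPM against 36.2, 35.9 and 42.8 CPM (log2 fold change 0.49 ± 0.093, adjusted p = 0.0034, edgeR). Rpl12, at the base of the stalk, was at 87.1, 85.6 and 133 CPM against 123, 193 and 172 CPM, with overlap (log2 fold change 0.67 ± 0.21, adjusted p = 0.0344, edgeR). Both calls were lost when counts of near-identical copies were added, as described below. Of the stalk proteins, Rplp0 was at 940, 1123 and 1021 CPM against 1139, 1329 and 1264 CPM (log2 fold change 0.28 ± 0.099, adjusted p = 0.0542, edgeR), and Rplp1 at 635, 782 and 800 CPM against 821, 1086 and 953 CPM (0.37 ± 0.13, adjusted p = 0.0526, edgeR). Rplp2 was at 218, 254 and 324 CPM against 259, 429 and 348 CPM, with overlap (0.38 ± 0.20, adjusted p = 0.167, edgeR).

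Rpl39l (0.64 ± 0.51), Rpl31 (0.47 ± 0.20) and Rpl32l were the other members with the largest values and did not pass. At the other end, Rpl6l, annotated as a processed pseudogene, had the most negative value, at 0.539 to 2.67 CPM (log2 fold change -0.56 ± 0.57). Rpl23 had -0.095 ± 0.097, and Rpl35, Rps25, Rps28, Rps26 and Rpl28, the other members below 0, were between -0.05 and -0.0044. Values did not overlap for 10 members upward (Rpl3, Rpl7, Rpl27, Rpl36al, Rpl41, Rplp0, Rplp1, Rps12, Rps14, Rps18) and for none downward, where all genes gave 25.2% and 30.5%. Rpl3 and Rps18, the pair called in EKLF-/- cells, had log2 fold changes of 0.16 ± 0.086 and 0.23 ± 0.092 here and did not pass (adjusted p = 0.167 and 0.0748, edgeR).

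EKLF/GFP+ 2 held the highest value of 75 of 83 members and EKLF/GFP- 1 the lowest of 56. The median log2 ratio of members to the EKLF/GFP- mean was -0.13, 0.045 and 0.077 in the EKLF/GFP- libraries and -0.0013, 0.32 and 0.11 in the EKLF/GFP+ libraries. Without EKLF/GFP+ 1, 23 members were called higher (19.8% of all genes in that fit), and without EKLF/GFP- 1, 1 was (13.9%). The kit that coincides with the groups, and the cell makeup, moved with them: all 12 erythroid markers were called higher in EKLF/GFP+ cells (summed 10015 to 11753 CPM against 4854 to 6203 CPM), and all 10 neutrophil markers (489 to 766 CPM against 4574 to 5313 CPM) and all 8 monocyte markers lower (65.2 to 95.1 CPM against 817 to 988 CPM). Their part in the results was not tested.

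As a share of all counts, members took 6.08, 5.72 and 6.92% in EKLF+/+ and 6.69, 10.2 and 7.68% in EKLF-/- libraries. The means were 6.24% ± 0.62 and 8.19% ± 1.81 (SD, n = 3 each; exact permutation p = 0.2, two-sided, where 0.1 is the smallest p that 3 against 3 allow). EKLF/GFP- libraries had 6.84, 7.39 and 7.60% and EKLF/GFP+ libraries 7.11, 8.54 and 7.63%. The means of 7.28% ± 0.39 and 7.76% ± 0.72 (SD, n = 3 each) gave an exact permutation p of 0.4. In TPM, the estimated share of transcripts corrected for length, the shares were 13.7% and 14.5% (exact permutation p = 0.3).

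Levels between genes were compared per length, in TPM over the 6 EKLF/GFP libraries. The highest mean levels were those of Rps15a (6762 TPM), Rps2 (6546 TPM), Rpl23a (6503 TPM) and Rpl7a (4462 TPM). The low end held paralogs, with Rpl39l at 1.51 TPM, Rpl3l at 0.17 TPM and Rpl10l listed at 0, beside members whose reads were assigned to copies elsewhere in the genome, such as Rpl5 at 29.6 TPM. Rpl39l and Rpl10l are known from testis and Rpl3l from striated muscle. Over 77 members other than paralogs, the order of levels in TPM had little in common with that in the single cells (Spearman rho 0.15). Rps12, for example, was at 407 TPM here and among the most abundant there.

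Near-identical copies, most of them processed pseudogenes, limit what a member's count means. At 95% identity or more over at least 90% of the coding sequence, 510 copies of 72 members were found, and they took 25.2% of the estimated counts of members and copies in the EKLF/GFP libraries. For 15 members the copies took the larger part, led by Rpl5 (97.5%), Rps27 (97.0%), Rpl27 (95.3%) and Rpl12 (94.3%). In the EKLF+/+ and EKLF-/- counts, 24.8 to 29.8% of reads had no unique position and were left out by the authors. There, Rpl26 was at 0 in all 6 libraries, and Rps27 and Rpl30 were at 0.866 to 2.54 CPM, while in the EKLF/GFP libraries, where reads are shared out among similar transcripts, Rpl26 was at 1135 to 1400 CPM.

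Adding the counts of the copies made several members steadier. Rpsa was at 457, 1004 and 1057 CPM in EKLF/GFP- and at 977, 1158 and 576 CPM in EKLF/GFP+ libraries, with a low library in each group. With its 10 copies it was at 1605, 1801 and 1669 CPM against 1762, 1887 and 1767 CPM, and the ratio of the highest to the lowest library fell from 2.53 to 1.18. Rpl21, with 55 copies in these files, was at 2341 to 4477 CPM alone and at 5256 to 5870 CPM with them. Of 77 members other than paralogs, 7 had a highest to lowest ratio of 2 or more alone and 2 with copies.

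With copies added, 4 members were again called higher in EKLF/GFP+ cells, beside 19.8% of all genes in that fit. They now included Rplp0 (log2 fold change 0.28, adjusted p = 0.0442, edgeR) and Rplp1 (0.37, adjusted p = 0.0438, edgeR). Rps12 (0.52, adjusted p = 0.0107, edgeR) and Rps14 (0.33, adjusted p = 0.0084, edgeR) were called both ways. Rps12 had no copy at these limits, and copies took 0.184% of Rps14, 0.303% of Rplp0 and 0.128% of Rplp1. The sum could therefore hardly change the counts of these 4. Rps12-ps3 and Rps12l1, symbols in the single-cell data, were not among the copies found. Rpl12 had 0.064 (adjusted p = 0.556) and Rpl27 0.066 (adjusted p = 0.653). The median of members was 0.12. In EKLF-/- cells the same sum left 2 called higher (9.71% of all genes), with a median of 0.35, since only 12 copies are listed in those files.

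**Figure D4:**
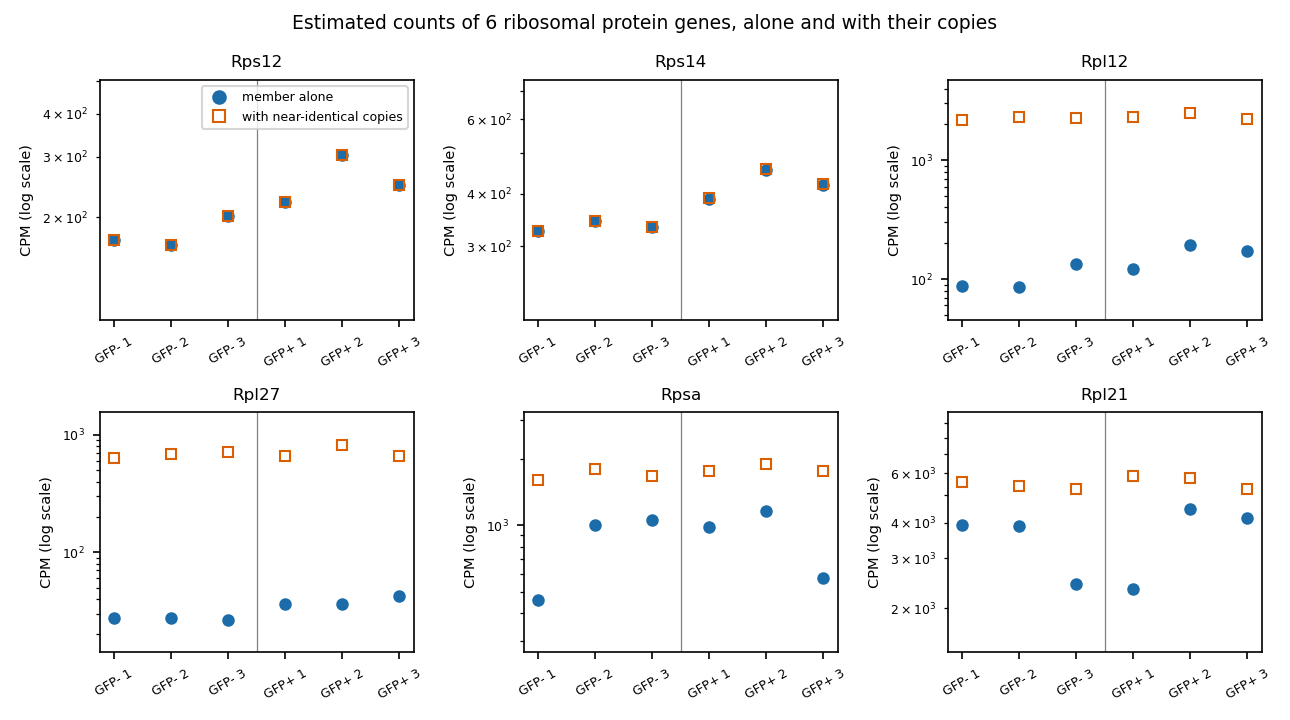
CPM (log scale) of 6 ribosomal protein genes in the 3 EKLF/GFP- and 3 EKLF/GFP+ libraries, for the member alone (filled circles) and with near-identical copies added (open squares). Rps12 and Rps14 hardly change, Rpl12 and Rpl27 rise to over 2000 and over 600 CPM and lose their difference, and the low libraries of Rpsa and Rpl21 reach the level of the others.

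Of the paralog pairs, the minor gene took these shares of its pair's TPM across the EKLF/GFP libraries: Rpl36al 16.9 to 21.6% of Rpl36a and Rpl36al, Rps4l 1.53 to 1.68% of Rps4x and Rps4l, Rpl39l, with few counts, 0.07 to 0.24% of Rpl39 and Rpl39l, and Rpl22l1 10.6 to 20.8% of Rpl22 and Rpl22l1. Rps27l, known as a p53-induced gene, took 85.6 to 91.9%, beside an Rps27 with 97.0% of its estimated counts on copies. Rpl22l1, the paralog of Rpl22, was called higher in EKLF/GFP+ cells (mean 53.6 against 85.9 CPM, log2 fold change 0.68 ± 0.17, adjusted p = 0.012, edgeR) and had 0.70 ± 0.24 in EKLF-/- cells (adjusted p = 0.068, edgeR). Rpl22 itself had 0.16 ± 0.17 and 0.21 ± 0.20. Fau, Rack1 and Rpl7l1, ribosomal genes that the symbol rule leaves out, did not pass in either comparison.

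Other genes of the pathway gave this picture. Of 78 mitochondrial ribosomal protein genes, 14 were higher and none lower in EKLF-/- cells (median log2 fold change 0.32), among them Mrps16 (0.77 ± 0.20) and Mrpl54 (0.69 ± 0.17), where 9.72% of all genes were higher and 10.6% lower. With the length offset 1 was higher and 1 lower. In EKLF/GFP+ cells 17 were higher and 1 lower, near the 18.9% of all genes called higher, led by Mrpl23 (1.25 ± 0.42) and Mrpl52 (1.04 ± 0.14). The median there was 0.16, the value of the cytosolic members.

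Of 70 ribosome biogenesis genes, 1 was higher and 10 lower in EKLF-/- cells (median log2 fold change -0.050), close to the 10.6% of all genes called lower. The lower ones included Utp20 (-0.74 ± 0.14) and Heatr1 (-0.63 ± 0.14) of the small subunit processome, Polr1a (-0.56 ± 0.14), the largest subunit of RNA polymerase I, and the helicase Ddx21 (-0.71 ± 0.14), whereas Nsa2, of large subunit assembly, rose by 0.80 ± 0.14. With the length offset 22 were lower (14.5% of all genes), and without EKLF-/- 2, 15 were (13.7%). In EKLF/GFP+ cells 21 were higher and none lower (median 0.17), beside 18.9% and 25.8% of all genes. Ubtf (0.35 ± 0.074), Polr1b (0.35 ± 0.071) and Gnl3 (0.39 ± 0.074) were among them, and Bysl had the largest value (0.49 ± 0.14). The comparisons share no library.

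The counts of the next lists stand beside 9.72% of all genes higher and 10.6% lower in EKLF-/- cells, and 18.9% and 25.8% in EKLF/GFP+ cells. Of the translation factors, 2 of 33 tested were higher in EKLF-/- cells (Eif5b and Eif3k) and 9 of 34 in EKLF/GFP+ cells, with none lower in either. Eif5b, which joins the subunits (log2 fold change 0.52 ± 0.10 and 0.33 ± 0.067), and Eif3k, of the initiation factor eIF3 (0.62 ± 0.18 and 0.24 ± 0.074), were called in both. Of 17 TOP messages that are not ribosomal, 1 was higher and 1 lower in each comparison. In EKLF-/- cells these were Vim (0.65 ± 0.19) and Hnrnpa1 (-0.68 ± 0.20), and in EKLF/GFP+ cells Eef1d (0.36 ± 0.085) and Vim (-2.44 ± 0.15). Of 16 p53 targets tested in EKLF/GFP+ cells, 3 were higher and 5 lower, shares near those of all genes.

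The single-cell library gives the members' share of counts by kind of cell. It holds 3096 distinct barcodes, of which 3093 were kept, with a median of 18593 counts. As there is 1 library, no test was made, and differences between clusters are descriptions. Cells were clustered without the members among the 4000 variable genes, of which 75 were near-identical copies of members. Of 16 clusters, 12 were named from markers and fell into 7 classes, and 4 clusters with 641 cells stayed unnamed. Members took 22.7% of all counts, against 7.38% for globin genes. Among the most abundant were Rpl41 (7207 CPM), Rplp1 (6802 CPM), Rps12 (6693 CPM) and Rps2 (5705 CPM). These are counts of message ends and need no length correction.

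By class, the share was 28.5% in 89 megakaryocyte-like cells, 26.1% in 283 monocyte-like cells, 23.5% in 256 neutrophil-like cells, 23.0% in 619 erythroid-like cells, 21.96% in 84 endothelial-like cells, 20.2% in 1054 macrophage-like cells and 19.5% in 67 hepatoblast-like cells. With globins left out of the total, erythroid-like cells had the highest share (30.3%), ahead of megakaryocyte-like cells (28.6%). The 95% exact binomial intervals, which cover counting error only, were under 1 percentage point wide, less than the spread between cells. The middle of the cells ran from 25.8 to 32.6% in megakaryocyte-like and from 17.8 to 22.8% in macrophage-like cells (first to last quartile). Median counts per cell were 36031 in megakaryocyte-like and 17824 in macrophage-like cells, and over all cells the share rose with the counts per cell (Spearman rho 0.36, n = 3093 cells of 1 library).

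Erythroid-like cells held the highest and, with globins in the total, the lowest cluster. Cluster 5 (239 cells) had 31.0% of its counts on members and 2.09% on globins, cluster 6 (197 cells) 17.4% and 39.5%, and cluster 7 (183 cells) 3.84% and 76.1%. With globins left out of the total, the shares were 31.7, 28.8 and 16.1%. The order of the 3 was the same on both scales, while cluster 7 then lay above clusters 10 (13.1%) and 15 (7.99%). All 81 members with enough counts were higher in cluster 5 than in cluster 7, at a median ratio of 8.47 in CPM. As these clusters have the highest and the lowest share, that most members differ one way follows from the choice. With globins left out of both totals, a scale added after seeing the data, the median ratio was 2.07, 79 of 81 members were higher in cluster 5, and Rpl41 (0.939) and Rpl39l (0.412) were lower. With globins in the totals, the highest ratios were those of Rpl5 (16.5), Rps7 (15.5), Rpl12 (13.9) and Rpl7a (13.8), and the lowest those of Rpl39l (1.68), Rpl41 (3.84), Rpl39 (4.86) and Rpsa (4.92).

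Neutrophil-like cells also held a wide range. Cluster 8, led by Ctsg, Elane and Mpo of early granules, had 27.2% (142 cells), and cluster 10, led by Ngp, Ltf and Lcn2 of late granules, 13.1% (114 cells). The macrophage-like clusters were closer, at 18.2% in cluster 0 (402 cells, led by Cd5l, Marco, Fcna and Vcam1), 22.4% in cluster 1 (381 cells, led by Fcrls, Ccl4 and Cx3cr1) and 21.3% in cluster 4 (271 cells). Among unnamed clusters, cluster 13, led by Hmga2, Trbc2, Sox4 and Hlf, had 29.97%, cluster 2 23.3%, cluster 9 18.6% and cluster 15 7.88%. Cluster 15 had a median of 5178 counts per cell and ribosomal pseudogene symbols among its leading genes. It met 10 macrophage markers and stayed unnamed for its low counts and lack of a marker among the leading genes. Clusters 2 and 4 also had ribosomal pseudogene symbols among their leading genes. Globin counts in hepatoblast-like cells were 0.339% of the total, and the part of free RNA in these shares was not tested.

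**Figure D5:**
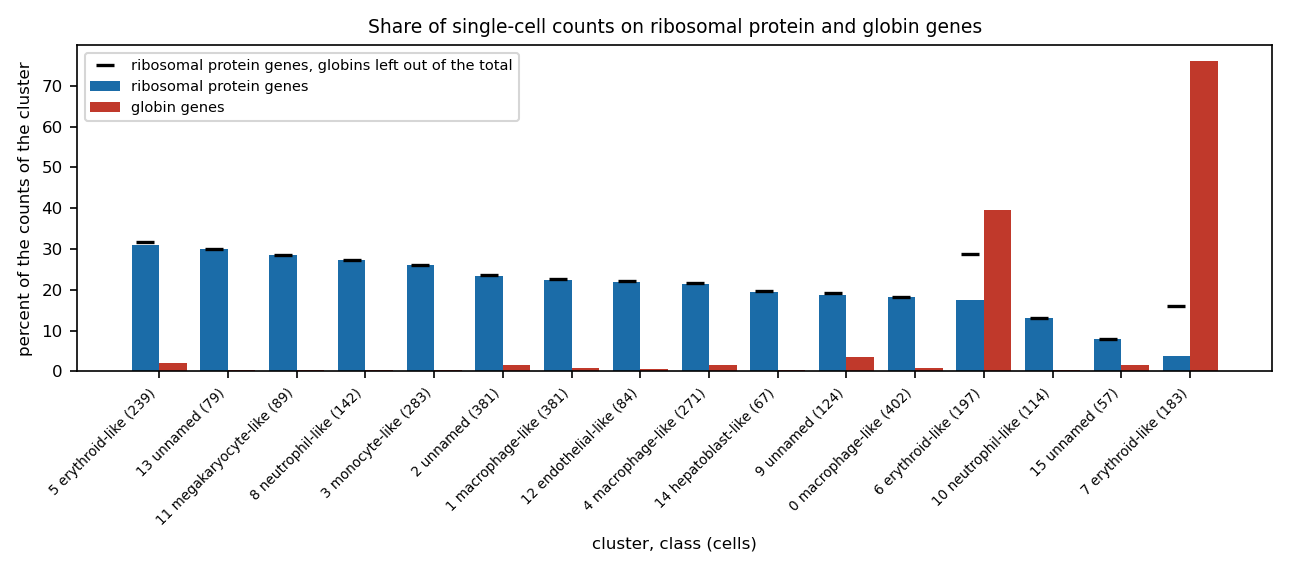
Percent of counts on ribosomal protein genes (blue) and globin genes (red) in each of 16 single-cell clusters, sorted, with the class and the number of cells, and black marks for ribosomal protein genes when globins are left out of the total. The erythroid-like clusters are both the highest (31.0%) and the lowest (3.84%), where globins take 76.1%.

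As a share of all member counts, 79 of 80 members with enough counts varied by under 2-fold over the 7 classes, and the median range was 0.34 on the log2 scale. Megakaryocyte-like and hepatoblast-like cells were picked as the classes with the highest and the lowest share of all counts, so that most members differ one way follows from the choice. Between them, 79 of 80 members were higher in megakaryocyte-like than in hepatoblast-like cells, at a median ratio of 1.46. The ratio was highest for Rpsa (5317 and 2702 CPM, 1.97-fold), Rps6, the target of S6 kinase (1.84-fold), Rplp0 (1.82-fold), Rps7 (1.78-fold) and Rpl12 (1.77-fold). It was lowest for Rpl38 (1.19-fold), Rpl29 (1.17-fold), Rpl24 (1.13-fold) and Rpl36al (1.13-fold).

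Rps4l was the exception, at 56.2 CPM (95% exact Poisson interval 48.6 to 64.7, counting error only) in megakaryocyte-like and 105 CPM (91.5 to 120) in hepatoblast-like cells. It took 1.29% of Rps4x and Rps4l counts in megakaryocyte-like and 1.28% in erythroid-like cells, against 2.63% in macrophage-like, 3.29% in endothelial-like and 3.48% in hepatoblast-like cells. Rps27l took 33.0% of its pair in endothelial-like and 49.2% in hepatoblast-like cells, and Rpl36al 34.9% in endothelial-like and 47.5% in macrophage-like cells. Rpl10l had no count in any of the kept cells, and Rpl3l 20 counts. Rpl29, at 391 to 469 CPM in EKLF+/+ bulk libraries, was at 36.7 CPM over the single cells, the lowest of the members other than paralogs.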

How the data were processed

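The members and gene lists were chosen with earlier results of these data known. Raw counts per gene of the EKLF+/+ and EKLF-/- libraries were deposited by the authors, who used STAR on mm10 and HTSeq, and 5 repeated per-sample columns were not used. For EKLF/GFP libraries, the authors deposited Salmon estimated counts and TPM per transcript, which were summed per gene here, with counts rounded. The authors' normalized count signal (tximport, DESeq2) served as an alternative only, by limma on log2(value + 1) and log2(value + 10). The authors deposited Alevin estimated molecule counts for single cells. A deposited table of log2 values with the authors' fold columns was not used. Versions of these tools are not given in the sources used here.

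Genes reaching 10 counts in 3 or more of 6 libraries were tested with edgeR 4.0.16 (TMM, quasi-likelihood, Benjamini-Hochberg, two-sided, 0.05), after a test on simulated data. Each comparison was fitted alone. DESeq2 1.42.0 and limma 3.58.1 were alternatives. Cells with at least 200 genes were clustered with Seurat 5.3.0 (30 components, resolution 0.8), and a class needed 3 markers at 2-fold in 25% of cells. Clusters with markers of several classes, or with low counts and no marker among the leading genes, stayed unnamed. Scrublet marked 0 of 3093 cells, so doublets were not removed. Members named in the text were the 6 largest and 6 smallest fold changes per comparison, the stalk genes and Rpsa, the Diamond-Blackfan genes, the paralog pairs and the 5 extreme class ratios. Other members, among them Rps14, Rpl14, Rpl8, Rps9 and Rpl21, were named after their values were seen. Sequences are from RefSeq on GRCm38.p6. Counting intervals and depth limits cover counting error only. Values of some genes are not reported here.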

Additional observations from a re-analysis of the deposited data

How the results depend on the processing

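Counts of members called moved with the settings, and in EKLF-/- cells so did the median. In EKLF-/- cells (2 higher, 0 lower), DESeq2 gave 6 higher, total counts 5, no filter 1 lower, and the length offset 2 lower with a median log2 fold change of 0.030. A limit of 2-fold left 0. Leaving out 1 library gave 0 to 19 higher and 0 to 1 lower, with medians of 0.11 to 0.49. In EKLF/GFP+ cells (4 higher, 0 lower), DESeq2 gave 17 higher (21.4% of all genes) and its size factors in edgeR 9 (21.1%). No filter gave 7 (12.2%), the length offset 8 (25.1%) and a 2-fold limit 0 (4.99%). Leaving out 1 library gave 1 to 23 higher (13.9 to 19.8% of all genes), with medians of 0.076 to 0.26. No alternative turned the sign of either median. Rps12 was reversed in the authors' normalized counts (log2 fold change -0.32 with a pseudocount of 1 and -0.32 with 10). The cause was not tested.

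Replicate numbers did not pair the libraries: same-number correlations of deviations were 0.0004, -0.0094 and 0.0334, and 0.0234, -0.1325 and -0.0081. In the EKLF/GFP libraries other numbers went together more closely (GFP- 1 with GFP+ 3, 0.1118, GFP- 2 with GFP+ 1, 0.1822, GFP- 3 with GFP+ 2, 0.2066). No label ties these, so that pairing was not fitted, and whether fractions share embryos is not known. The replicate block gave 2 higher and 1 lower in EKLF-/- cells and 12 higher in EKLF/GFP+ cells. With the length offset beside it, the block gave 1 higher, 2 lower and a median of 0.021, and 32 higher.

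Class shares (megakaryocyte-, monocyte-, neutrophil-, erythroid-, endothelial-, macrophage-, hepatoblast-like) were 28.6, 26.2, 23.6, 30.3, 22.1, 20.4 and 19.6% without globins and, chosen after seeing the data, 29.3, 27.0, 24.3, 23.8, 22.9, 21.0 and 20.2% with copies added. Resolution 0.4 gave 30.1, 26.2, 23.2 and 17.6% for the first 4 of them and 19.8% for macrophage-like cells. Resolution 1.2 gave 26.2, 22.5 and 19.4% for monocyte-, neutrophil- and macrophage-like cells. At least 500 genes per cell gave 23.1, 23.1 and 20.8% for neutrophil-, erythroid- and macrophage-like cells, and members among the variable genes 22.5% and 20.7% for neutrophil- and macrophage-like cells. Leaving out the 6% of cells with the highest Scrublet scores (chosen after seeing the data) gave 23.2, 22.9, 21.7, 20.1 and 20.03% for neutrophil-, erythroid-, endothelial-, macrophage- and hepatoblast-like cells. Copies kept out of the variable genes (likewise) gave 26.1, 22.5, 23.0, 21.7, 20.7 and 19.2% for all but megakaryocyte-like cells. Members under a few CPM could not be judged at this depth.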
